A study of Homo sapiens with 15 samples.

Results

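Notch signalling was followed through 10 genes: the receptors NOTCH1, NOTCH2 and NOTCH3, the ligand JAG1, and the effectors HES1, HES4, HES5, HEY1, HEY2 and HEYL. They were picked by symbol, with earlier results of these data known but without reference to a threshold on any value. All 10 were found among the 19684 genes listed for each library. Poly(A) RNA was sequenced in 15 libraries, which form 5 groups of 3. The groups are undifferentiated hiPSCs, the neural retina (NR) layers of retinal organoids (ROs) at day 70 (D70-RO) and day 150 (D150-RO), and induced Müller glial cells (iMGCs) on day 5 of passage 1 (P1) and of passage 5 (P5). All of them come from BC1-GFP, 1 human induced pluripotent stem cell line with a GFP reporter and the genotype WT, so the libraries carry no spread between donors or lines. Each RO library pools the NR layers of several organoids, and the iMGCs grew out of dissociated NR layers of D150-ROs plated in serum-containing medium. For every group the descriptions of the samples speak of 3 independent experiments, whereas the overall description speaks of 2 for the hiPSCs and ROs, so p-values measure the spread between these libraries, which may in part be technical.

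Notch receptors are single-pass membrane proteins that are activated by ligands of the JAG and DLL families on a neighbouring cell. Binding leads to cleavage by ADAM proteases and γ-secretase, and the freed intracellular domain enters the nucleus and joins the DNA-binding protein RBPJ and a MAML coactivator. The best known targets are the HES and HEY genes, which encode basic helix-loop-helix repressors. In the developing retina these repressors hold back proneural factors such as ATOH7, which keeps progenitors dividing and favours Müller glia, the last cell type that the progenitors give rise to. NOTCH3 is also known as a receptor of vascular mural cells.

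RBPJ recognises the core TGGGAA. RefSeq promoters (GRCh38.p14, 250 bases before to 50 after the start) were at hand for 9 of the 10 genes, HEY1 being without an entry. On either strand, the core was present in 5 of 5 effector promoters, in 0 of 3 receptor promoters and not in that of JAG1. Among all 27305 promoters of that length, 24.3% held it, and 6.28% held the 7-base form GTGGGAA, which contains the core and was found in the same 5 effector promoters. The windows below show the matches, 5′ to 3′ on the strand of the gene, with the core in capitals (TTCCCA where it lies on the other strand), because the effectors described below share these letters. A match describes the letters of a window and does not show that RBPJ binds there.
HES1, chr3:194136059-194136088, plus strand, cores at −84 and −70: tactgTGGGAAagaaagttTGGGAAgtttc
HES4, chr1:1000156-1000185, minus strand, core at −76: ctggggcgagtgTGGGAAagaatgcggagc
HES5, chr1:2530326-2530355, minus strand, core at −80: ggccgcggagtgTGGGAAcggccgcggcgc
HES5, chr1:2530470-2530499, minus strand, core on the other strand at −224: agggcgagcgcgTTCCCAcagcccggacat
HEY2, chr6:125749617-125749646, plus strand, core at −3: agagttgcggcgTGGGAAagagccgctagg
HEY2, chr6:125749407-125749436, plus strand, core on the other strand at −213: tccgcggccgcgTTCCCAcgcctcggctgg
HEYL, chr1:39639725-39639754, minus strand, core at −99: aggaaagggcccTGGGAAagggcggtggcg
HEYL, chr1:39639804-39639833, minus strand, core on the other strand at −178: ccgcctagggccTTCCCAcggctcggcggc

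Each gene has 2 deposited values per library. FPKM, fragments scaled by the authors for transcript length and for the mapped reads of the library, is used here for levels and for comparison between genes. RSEM expected counts, which estimate the reads from a gene, summed to between 11349600 (D70-RO replicate 2) and 20398755 per library and were used for tests. Groups were compared 2 at a time with edgeR's quasi-likelihood test on TMM-scaled counts, over genes with at least 1 FPKM in at least 3 of the libraries compared, and a gene counts as called where the fold change is at least 2 with a Benjamini-Hochberg adjusted p below 0.05. Log2 fold changes are fitted values on that scale, given ± SE. TMM scaling left the median of all genes between −0.05 and 0.02 in the 5 comparisons. On log2(FPKM + 1), the median of all genes instead differed by −0.59 between P1 iMGCs and D150-ROs, by 0.27 between D150-ROs and hiPSCs and by 0.19 between D150-ROs and D70-ROs, so ratios of FPKM and fitted changes are not interchangeable. The overall description names 2 sequencing companies and a batch correction without tying either to a library, so a batch shared within groups and the groups themselves cannot be told apart. RO and iMGC values come from separate deposited tables.

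Markers set the frame for the levels below. The summed FPKM of 6 retinal progenitor markers ranged from 933.2 to 1070 at D70, from 443.3 to 498.2 at D150 and from 32.4 to 49.6 in iMGCs, and that of 6 photoreceptor markers was 64.8 to 68.7, 793.0 to 813.5 and at most 0.56. The iMGCs carried only some defining markers of Müller glia: RLBP1 was listed at 0 in all P1 libraries and in 2 of 3 P5 libraries, against 29.6 to 36.9 FPKM in D150-ROs, and AQP4 was at 0 in all 6, and at most 0.24 in D150-ROs. The 8 Müller glia markers together summed to 1196 to 1363 FPKM in D150-ROs, 2193 to 2226 in P1 and 2950 to 3060 in P5 iMGCs, of which VIM alone gave 984.6 to 1136, 2141 to 2181 and 2802 to 2901. GLUL was at 12.2 to 15.2 FPKM in iMGCs against 97.6 to 102.3 in D150-ROs, and SOX9 at 3.47 to 5.48 against 38.9 to 46.5. Of the 8, 7 averaged 1 FPKM or more in D150-ROs, all but AQP4. At P1 there were 4 (GLUL, SOX9, VIM and CRYAB), and at P5 these and SLC1A3. The paper reports CRYAB as enriched in the passaged iMGCs over D150-ROs. The 10 mural cell markers, of which 7 averaged 1 FPKM or more in D150-ROs and 9 in iMGCs, summed to 56.9 to 61.2 FPKM in D150-ROs, 434.8 to 455.6 in P1 and 496.5 to 513.7 in P5 iMGCs, and 8 fibroblast and mesenchyme markers to 11.4 to 14.9, 2184 to 2288 and 2479 to 2725. In P1 iMGCs ACTA2 alone gave 240.6 to 265.9 FPKM of the mural sum. Nearly all of the rest came from PDGFRB, RGS5, CSPG4, MCAM and DES, and this rest exceeded the whole mural sum of D150-ROs. By contrast NDUFA4L2 averaged 1.22 against 6.89 in D150-ROs, KCNJ8 1.81 against 1.79 and ABCC9 2.70 against 3.03. MYH11 was at most 0.07 in both groups. COL1A1 alone gave 1946 to 2053 FPKM of the fibroblast sum. Of the endothelial markers, KDR was at 84.7 to 92.2 FPKM in D150-ROs and at most 0.58 in iMGCs, while CDH5 was listed at 0 in D150-ROs. These lists changed between the same groups as the Notch genes described below, not always in the same direction. Their part in those results was not tested. In bulk RNA, fewer cells of a type and less RNA per cell cannot be told apart.

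The receptors exchanged places. NOTCH3 led in hiPSCs, NOTCH1 in both RO stages and NOTCH2 in iMGCs. NOTCH1, which lies at chr9:136494433-136545786 (GRCh38, GENCODE 29), stood at 17.4, 19.8 and 13.2 FPKM in the 3 hiPSC libraries and at 18.5, 17.0 and 20.7 in D70-ROs. These groups overlapped, and the fitted difference was 0.01 ± 0.15 (edgeR adjusted p = 0.94). In D150-ROs NOTCH1 was at 34.3, 31.1 and 31.1 FPKM, above every D70-RO library. The fitted difference of 0.56 ± 0.09 (edgeR adjusted p = 0.000485) was under 2-fold. In P1 iMGCs NOTCH1 was at 2.83, 2.84 and 2.92 FPKM and in P5 iMGCs at 3.00, 3.01 and 3.04, far below any other group. It fell by 2.85 ± 0.06 on the log2 scale from D150-ROs to P1 iMGCs (edgeR adjusted p = 2.91e-16).

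NOTCH2 (chr1:119911553-120069626) was at 11.4, 11.4 and 8.11 FPKM in hiPSCs and at 8.01, 7.71 and 9.88 in D70-ROs, with overlapping libraries. It was at 25.6, 24.6 and 23.7 FPKM in D150-ROs, at 46.5, 47.1 and 47.4 in P1 and at 47.8, 49.9 and 49.6 in P5 iMGCs. Each of these steps left the groups apart. The fitted rise from D70-ROs to D150-ROs was 1.28 ± 0.10 (edgeR adjusted p = 7.33e-06), and from D150-ROs to P1 iMGCs 1.60 ± 0.05 (edgeR adjusted p = 2.35e-14). On log2(FPKM + 1) the latter was 0.91, under 2-fold, where the median of all genes was −0.59. D150-ROs against hiPSCs gave 0.86 ± 0.13, under 2-fold with all libraries and between 1.02 and 1.08, above it, when any 1 D150-RO library was left out. The lowest value with an hiPSC library left out was 0.60. NOTCH2 shares near-identical sequence with NOTCH2NLA, between which the counting could split reads. NOTCH2NLA averaged 11.04 ± 1.40 FPKM (SD, n = 3) in D150-ROs and 12.4 ± 2.12 in P1 iMGCs.

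NOTCH3 (chr19:15159038-15200981) was highest in hiPSCs, at 32.4, 42.0 and 26.4 FPKM. It was at 11.8, 12.5 and 13.96 FPKM in D70-ROs and at 4.77, 5.37 and 4.63 in D150-ROs. The groups did not overlap, and NOTCH3 fell at both steps, by 1.51 ± 0.16 to D70 (edgeR adjusted p = 5.74e-06) and by 1.60 ± 0.10 from D70 to D150 (edgeR adjusted p = 2.17e-06). In P1 iMGCs it was at 10.98, 12.18 and 12.01 FPKM and in P5 iMGCs at 9.70, 10.7 and 9.15. It rose by 1.87 ± 0.07 from D150-ROs to P1 iMGCs (edgeR adjusted p = 5.27e-13). In 1 fit of all 15 libraries P1 iMGCs exceeded D70-ROs by 0.30 ± 0.13 (edgeR adjusted p = 0.0381), although their mean FPKM was lower. The mural marker sum given above did not follow NOTCH3 at the other steps: it was at its lowest in hiPSCs, at 36.8 to 41.5 FPKM, where NOTCH3 was highest, and from D70 to D150, when NOTCH3 fell, the sum was higher in each D150-RO library (at least 56.9) than in any D70-RO library.

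**Figure D1:**
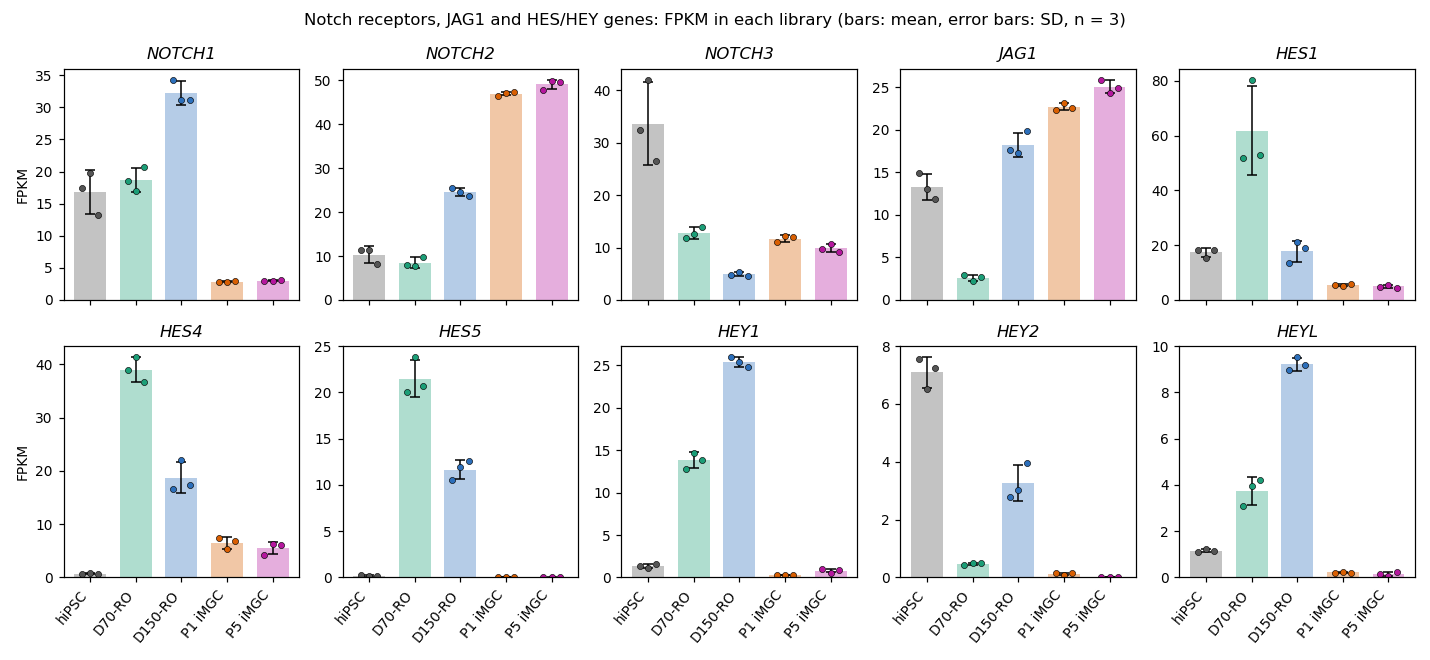
FPKM of the 10 genes in each of the 15 libraries (y axis, linear, from 0) by group (x axis), with points for libraries, bars for means and error bars for SD over 3 libraries. NOTCH3 is highest in hiPSCs, HES1, HES4 and HES5 in D70-ROs, NOTCH1, HEY1 and HEYL in D150-ROs, and NOTCH2 and JAG1 in iMGCs.

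JAG1, a ligand of the JAG family (chr20:10637684-10673999), dipped at day 70. It was at 14.9, 13.1 and 11.9 FPKM in hiPSCs, at 2.91, 2.18 and 2.73 in D70-ROs and at 17.6, 17.2 and 19.9 in D150-ROs. All D70-RO libraries lay below all others. JAG1 fell by 2.48 ± 0.15 from hiPSCs to D70-ROs (edgeR adjusted p = 6.24e-08) and rose by 2.54 ± 0.11 from D70 to D150 (edgeR adjusted p = 3.19e-07). D150-ROs against hiPSCs gave 0.06 ± 0.10 (edgeR adjusted p = 0.56), with a sign that turned to −0.14 without hiPSC replicate 3 and to −0.03 without hiPSC replicate 2. In iMGCs JAG1 was at 22.4, 23.2 and 22.6 FPKM at P1 and at 25.9, 24.3 and 24.9 at P5. The difference between P1 iMGCs and D150-ROs was 0.98 ± 0.05 (edgeR adjusted p = 2.67e-11), just under 2-fold, and it was 1.01 to 1.05 without any 1 of the P1 libraries and 0.80 at the lowest without a D150-RO library. On log2(FPKM + 1) this difference was 0.30, where the median of all genes was −0.59. An antisense gene, AL050403.2, shares 79 exon bases with JAG1 in GENCODE 29, and whether the counting used strand is not given in the sources used here.

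The HES effectors peaked at day 70. HES1 (chr3:194136145-194138732), the most widely used Notch target, was at 18.2, 15.5 and 18.4 FPKM in hiPSCs and at 51.8, 80.4 and 53.0 in D70-ROs. The high value belongs to D70-RO replicate 2, which is also the shallowest library. HES1 rose by 1.70 ± 0.19 (edgeR adjusted p = 1.04e-05), and with any 1 library left out the value stayed between 1.52 and 1.94. In D150-ROs HES1 was at 13.6, 21.1 and 18.8 FPKM, overlapping the hiPSCs, and it fell by 2.02 ± 0.22 from day 70 (edgeR adjusted p = 4.82e-05). D150-ROs against hiPSCs gave −0.32 ± 0.15 (edgeR adjusted p = 0.0618), and the sign turned on log2(FPKM + 1), where the value was 0.02, and without D150-RO replicate 1, also at 0.02. In P1 iMGCs HES1 was at 5.37, 5.02 and 5.74 FPKM and in P5 iMGCs at 4.84, 5.42 and 4.52, and it fell by 1.09 ± 0.15 from D150-ROs to P1 (edgeR adjusted p = 4.06e-06).

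HES4 (chr1:998962-1000172), a HES gene that mice lack, was near absent from hiPSCs, at 0.64, 0.81 and 0.70 FPKM. It reached 38.9, 41.4 and 36.6 FPKM in D70-ROs, a rise of 5.58 ± 0.21 (edgeR adjusted p = 2.42e-09). D150-ROs held 16.7, 22.0 and 17.4 FPKM, and HES4 fell by 1.22 ± 0.13 (edgeR adjusted p = 4.47e-05). Among the effectors, HES4 and HES1 kept the highest levels in iMGCs, with HES4 at 7.35, 5.28 and 6.76 FPKM at P1 and 4.22, 6.37 and 6.11 at P5. The difference from D150-ROs to P1 iMGCs was −0.92 ± 0.15 (edgeR adjusted p = 2.75e-05), under 2-fold. It passed 2-fold with upper-quartile scaling (−1.04), on log2(FPKM + 1) (−1.40), with P5 in place of P1 iMGCs (−1.10), and without D150-RO replicate 1 (−1.14) or replicate 3 (−1.12).

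HES5 (chr1:2528745-2530245), a Notch target of neural progenitors, was at 0.27, 0.12 and 0.15 FPKM in hiPSCs, which rests on 14 counts over the group. It was at 20.03, 23.82 and 20.65 FPKM in D70-ROs and at 10.5, 11.9 and 12.6 in D150-ROs, and the 3 groups did not overlap. The rise to D70 was 6.72 ± 0.28 (edgeR adjusted p = 4.52e-09) and from D70 to D150 HES5 fell by 1.10 ± 0.13 (edgeR adjusted p = 6.93e-05), with the latter change at −0.83 and under 2-fold on log2(FPKM + 1). HES5 was listed at 0 in the 3 P1 libraries and had a single count among the 3 P5 libraries. With an upper limit of 3 counts over the P1 group, it was at least 163-fold lower in P1 iMGCs than in D150-ROs, a limit that covers counting error only.

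The HEY genes did not peak with the HES genes. HEY1 (on chromosome 8), a repressor that Notch induces in many tissues, climbed from 1.34, 1.13 and 1.56 FPKM in hiPSCs to 12.8, 14.7 and 13.9 in D70-ROs. In D150-ROs it was at 26.0, 25.4 and 24.8 FPKM. It rose by 3.22 ± 0.17 to D70 (edgeR adjusted p = 2.87e-08), while the further step of 0.68 ± 0.09 to D150 (edgeR adjusted p = 0.000139) was under 2-fold. In P1 iMGCs HEY1 was at 0.33, 0.32 and 0.32 FPKM, and it fell by 5.63 ± 0.12 from D150-ROs (edgeR adjusted p = 8.00e-16). HEYL (chr1:39624153-39639945), another HEY family member, followed the same order, from 1.10, 1.21 and 1.16 FPKM in hiPSCs through 3.07, 3.97 and 4.22 in D70-ROs to 8.95, 9.53 and 9.17 in D150-ROs. HEYL rose by 1.56 ± 0.20 (edgeR adjusted p = 2.85e-05) and then by 1.08 ± 0.14 (edgeR adjusted p = 0.000127), and the latter lay under 2-fold without D70-RO replicate 1 (0.91) and with upper-quartile scaling (0.98). P1 iMGCs held 0.20, 0.25 and 0.20 FPKM of HEYL, and it fell by 4.75 ± 0.15 from D150-ROs (edgeR adjusted p = 6.24e-14).

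HEY2 (chr6:125747664-125761269), best known from heart and vessel development, went against the other effectors on the way to D70. It was at 7.54, 6.51 and 7.23 FPKM in hiPSCs, at 0.42, 0.49 and 0.50 in D70-ROs and at 2.78, 3.04 and 3.97 in D150-ROs. No libraries of these groups overlapped. HEY2 fell by 4.06 ± 0.20 to D70 (edgeR adjusted p = 1.75e-08), when the other 5 effectors rose, and rose by 2.58 ± 0.23 from D70 to D150 (edgeR adjusted p = 1.42e-05). It stayed 1.48 ± 0.15 below hiPSCs at D150 (edgeR adjusted p = 1.12e-06), a difference of 0.93 and under 2-fold on log2(FPKM + 1). In P1 iMGCs it was at 0.16, 0.07 and 0.14 FPKM, and it fell by 4.11 ± 0.30 from D150-ROs (edgeR adjusted p = 2.78e-09).

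The calls among the 10 members are set beside the calls in the whole table. Between D70-ROs and hiPSCs 8 of the 10 were called (HES1, HES4, HES5, HEY1 and HEYL higher, NOTCH3, JAG1 and HEY2 lower), where 43.5% of all genes tested were called, 22.5% higher and 21.1% lower. Libraries of the groups did not overlap in 8 members, and in 75.5% of all genes. Between D150-ROs and D70-ROs 8 of 10 were called, 4 in each direction, where 33.3% of all genes were, 16.6% higher and 16.7% lower. The groups did not overlap in any of the 10 members, and in 77.2% of all genes. Between D150-ROs and hiPSCs 6 of 10 were called (HES4, HES5, HEY1 and HEYL higher, NOTCH3 and HEY2 lower), close to the 58.8% of all genes, with 29.8% of all genes higher and the rest lower. The groups did not overlap in 9 members, and in 87.4% of all genes. Between P1 iMGCs and D150-ROs 8 of 10 were called (NOTCH2 and NOTCH3 higher, NOTCH1, HES1, HES5, HEY1, HEY2 and HEYL lower), where 44.1% of all genes were, 20.0% higher and 24.1% lower. The groups did not overlap in any of the 10 members, and in 87.9% of all genes. HES5, HEY1, HEY2 and HEYL lay under 1 FPKM in all P1 libraries, so they were tested only because they are high in D150-ROs and could only be called lower. Without D150-RO replicate 1, 2 or 3, the members called were 5, 4 and 5 in place of 8. In the same way HES4 and HES5 were tested against hiPSCs only through the ROs, and HEY2 in D70-ROs only through hiPSCs or D150-ROs. The median fitted change of the 10 genes between P1 iMGCs and D150-ROs was −1.97, beside −0.05 over all genes. It was 0.78 beside 0.02 between D70-ROs and hiPSCs, 0.62 beside −0.01 between D150-ROs and D70-ROs, and 0.72 beside −0.02 between D150-ROs and hiPSCs. Against hiPSCs, D150-ROs differed most in HES5 (5.62 ± 0.25), HES4 (4.36 ± 0.21), HEY1 (3.90 ± 0.13) and NOTCH3 (−3.11 ± 0.15), each with an edgeR adjusted p of at most 1.45e-09, and HEYL was 2.63 ± 0.12 higher (edgeR adjusted p = 1.09e-09). Each of the 5 comparisons shares a group with at least 1 other, so they are not independent of each other.

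**Figure D2:**
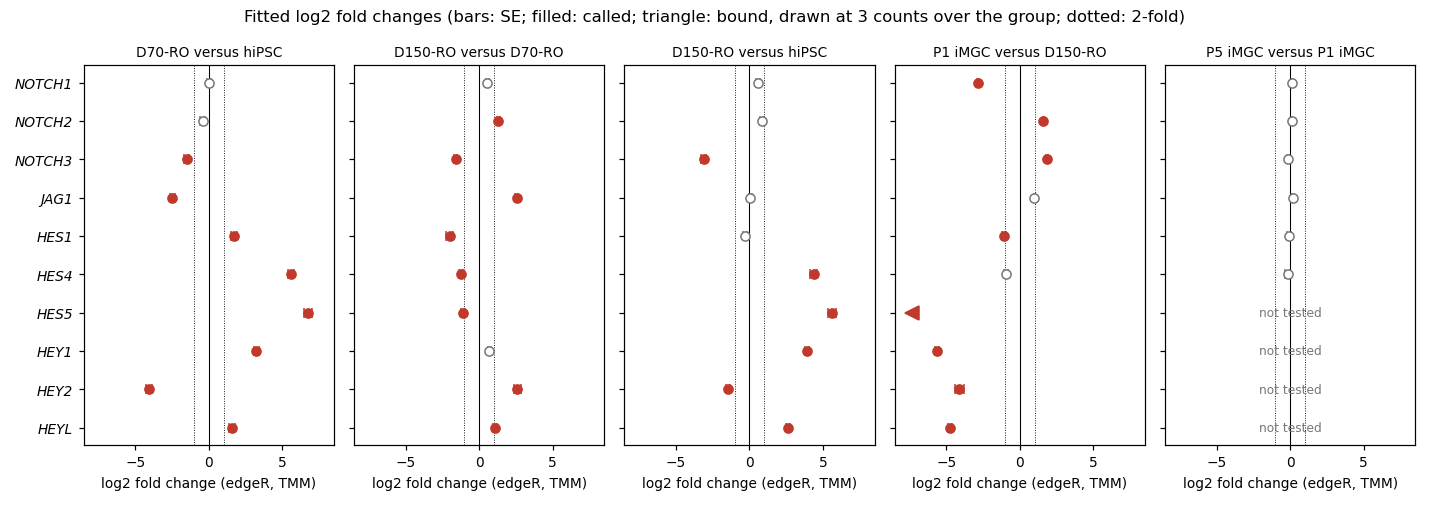
Fitted log2 fold change (x axis) of each of the 10 genes (y axis) in the 5 comparisons, with SE bars, filled points for called genes and dotted lines at 2-fold. The triangle marks HES5 in P1 iMGCs against D150-ROs at its limit of −7.35, and 4 genes below the FPKM minimum were not tested between P5 and P1 iMGCs.

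Between P1 and P5 iMGCs the changes were small or rested on few counts. NOTCH1, NOTCH2, NOTCH3, JAG1, HES1 and HES4 passed the FPKM minimum, and 0 of these 6 were called with edgeR, where 2.92% of all genes were, 1.94% higher and 0.977% lower at P5. The groups did not overlap in 4 of the 6, and in 39.5% of all genes. At an unadjusted p under 0.05 there were 3, and DESeq2 and limma on log2(FPKM + 1) called 0. JAG1 was higher at P5 by 0.20 ± 0.04 (edgeR adjusted p = 0.000439) and NOTCH2 by 0.12 ± 0.04 (edgeR adjusted p = 0.0135), both far under 2-fold, and NOTCH3 differed by −0.15 ± 0.06 (edgeR adjusted p = 0.0549). The other 4 genes lay under 1 FPKM. HEY1 was at 0.94, 0.58 and 0.84 FPKM at P5, above all P1 libraries, and with no filter on FPKM the difference of 1.18 ± 0.36 was called (edgeR adjusted p = 0.00790). HEYL was at 0.15, 0.08 and 0.22 FPKM at P5 and overlapped P1. HEY2 had 2 counts over the P5 group against 16 at P1, a log2 ratio of −2.94 with a 95% counting interval of −6.10 to −0.85.

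The order of levels over the 5 groups was taken from mean FPKM, and neighbours in it were compared in 1 edgeR fit of all 15 libraries at an adjusted p under 0.05 (adjusted within each pair of groups over 13915 genes). Neighbours that did not differ by that test were D70-ROs and hiPSCs for NOTCH1, D150-ROs and hiPSCs for JAG1 and HES1, and P1 and P5 iMGCs for NOTCH1, NOTCH2, NOTCH3, JAG1, HES1, HES4, HES5 and HEYL. HEY1 and HEY2 differed between the passages in that fit, at 1.17 ± 0.24 higher at P5 (edgeR adjusted p = 0.00272) and 2.78 ± 0.71 higher at P1 (edgeR adjusted p = 0.0149). At that threshold 80.4% of all genes differed between D70-ROs and hiPSCs, 86.5% between D150-ROs and hiPSCs, 80.8% between P1 iMGCs and D70-ROs, and 10.6% between the passages.

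FPKM, which is scaled for length, allows the members of a family to be set side by side. The summed FPKM of NOTCH1 to NOTCH4 was 61.2 ± 12.8 (SD, n = 3) in hiPSCs, 40.6 ± 3.86 in D70-ROs, 62.0 ± 2.71 in D150-ROs, 61.6 ± 1.08 in P1 and 62.0 ± 1.56 in P5 iMGCs. Within this sum NOTCH3 made up 54.8% ± 2.21 in hiPSCs. NOTCH1 made up 46.1% ± 1.35 in D70-ROs and 51.9% ± 1.08 in D150-ROs, and NOTCH2 76.3% ± 0.68 in P1 and 79.2% ± 0.91 in P5 iMGCs. The leading receptor was the same in both RO stages and in both passages. NOTCH4 was under 1.8% in every library.

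Of the summed FPKM of the 5 canonical ligands, JAG1 made up 62.2% ± 1.36 in hiPSCs, 5.95% ± 1.08 in D70-ROs, 46.2% ± 0.62 in D150-ROs, 94.8% ± 0.27 in P1 and 95.02% ± 0.23 in P5 iMGCs. In D70-ROs DLL3, a DLL family member that does not activate receptors on neighbouring cells, led with 47.7% ± 3.73. The summed FPKM of the 6 effectors was 27.8 ± 2.25 in hiPSCs, 140.2 ± 21.3 in D70-ROs, 86.1 ± 7.30 in D150-ROs, 12.5 ± 1.36 in P1 and 11.5 ± 1.19 in P5 iMGCs. HES1 led in hiPSCs with 62.3% ± 0.90, followed by HEY2 with 25.5% ± 0.61, and led in D70-ROs with 43.6% ± 4.54. HEY1 led in D150-ROs with 29.7% ± 3.03, and HES4 and HES1 together made up nearly all of the sum in iMGCs, with 51.5% ± 3.27 and 43.2% ± 2.95 at P1. For shares, an exact two-sided permutation test of 3 against 3 libraries cannot go below p = 0.1, which NOTCH3 in hiPSCs against D70-ROs, NOTCH2 in P1 iMGCs against D150-ROs and HEY1 in D150-ROs against D70-ROs each reached.

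**Figure D3:**
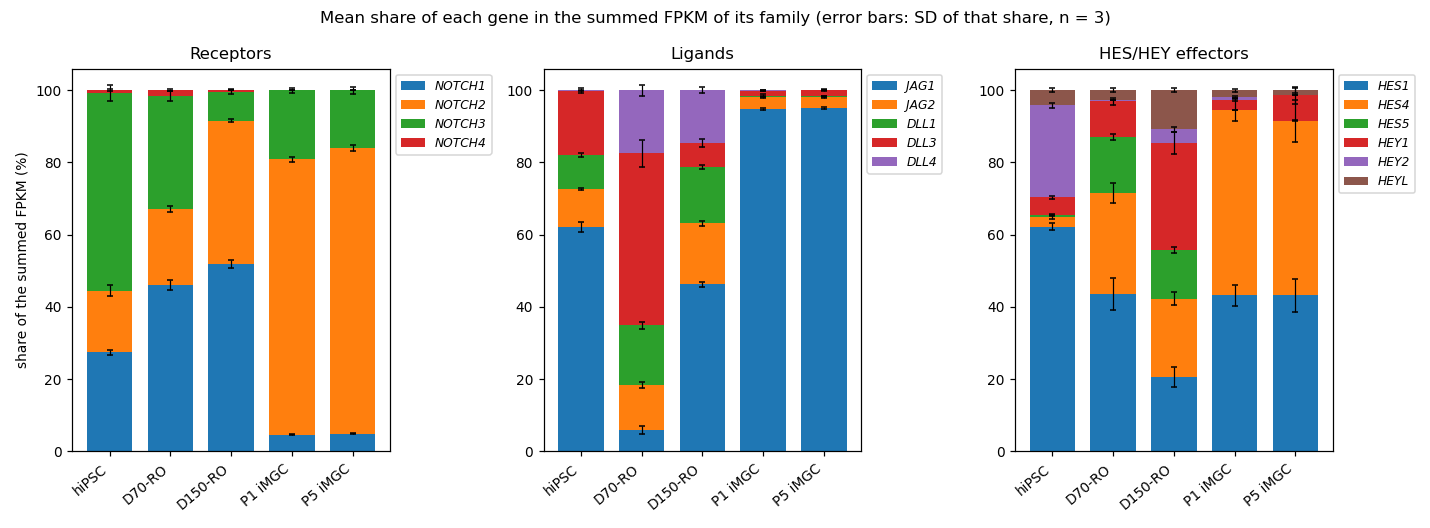
Mean share of each gene in the summed FPKM of its family (y axis, percent) by group (x axis), for 4 receptors, 5 ligands and 6 effectors, with error bars for the SD of each share over 3 libraries. The largest block moves from NOTCH3 (54.8%) through NOTCH1 (51.9% in D150-ROs) to NOTCH2 (79.2% in P5 iMGCs), and JAG1 fills 95.02% of the ligand sum in P5 iMGCs.

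Transcript length moved with the change between stages and has to be read beside these values. Between D70-ROs and D150-ROs the median change over all genes ran from −0.67 among the shortest transcripts to 0.57 among the longest, with genes ranked by length into 4 equal classes, and between hiPSCs and D150-ROs from −0.90 to 0.89. HES1, HES4, HES5 and HEY1 are in the shortest class and NOTCH1, NOTCH2, NOTCH3 and JAG1 in the longest. Set against the median of its own class, the D150 against D70 change was −1.35 for HES1, −0.55 for HES4, −0.43 for HES5 and 1.35 for HEY1. For the long genes it was −0.01 for NOTCH1, 0.71 for NOTCH2, −2.16 for NOTCH3 and 1.97 for JAG1. Fitted falls of HES4 and HES5 were thus within 0.6 of the median of equally short genes, and the rise of NOTCH1 equalled that of equally long genes. Between D150-ROs and hiPSCs the sign turned against the class median for NOTCH1 (−0.32), NOTCH2 (−0.03), JAG1 (−0.83) and HES1 (0.58). Between P1 iMGCs and D150-ROs the medians ran from 0.24 in the shortest to −0.24 in the longest class, and the direction of each of the 10 genes was the same before and after subtraction. The part of length in these results was not tested further.

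**Figure D4:**
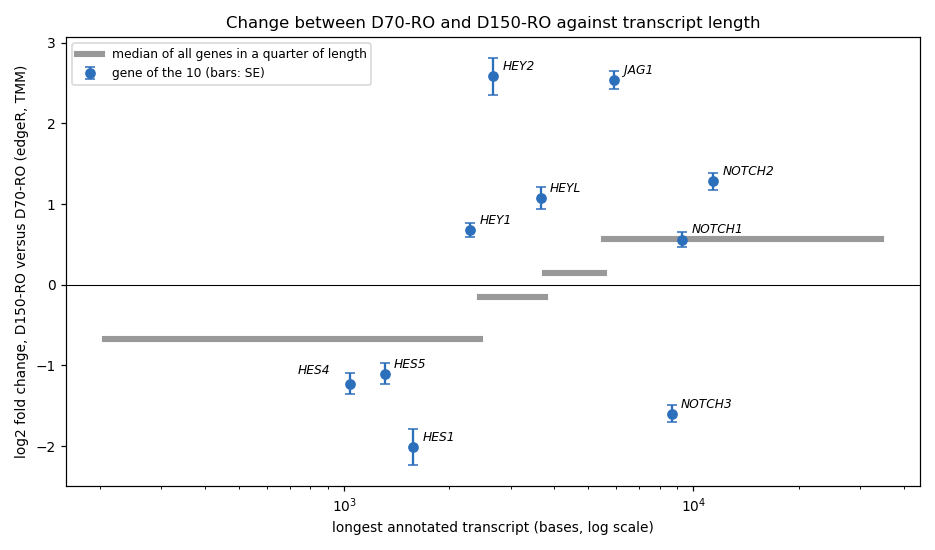
Fitted log2 fold change of D150-ROs against D70-ROs (y axis, bars for SE) for the 10 genes against the length of the longest GENCODE 29 transcript (x axis, log scale), with grey lines for the median of all genes in each of the 4 length classes. HES4 and HES5 lie 0.55 and 0.43 below the line of the shortest class, NOTCH1 on that of the longest, and NOTCH3 2.16 below it.

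Around the 10 genes, 54 further genes of the pathway were listed by role. Between D70-ROs and hiPSCs, 22 of the 51 tested were called (43.1%), 16 higher and 6 lower. This was near the share of all genes tested, of which 43.5% were called, 22.5% higher and 21.1% lower. The median change was 0.44 against 0.02 over all genes. All 4 other ligands rose. DLL4, KAT2B, NEURL1 and HES2 lay under 1 FPKM in all hiPSC libraries. Against hiPSCs they were therefore tested only through the ROs, at D70 and at D150, and could only be called higher. HES3, listed at 0 in the ROs, could only be called lower. DLL4, a ligand of neurogenic progenitors and of vessels, rose most, by 7.41 ± 0.27 (edgeR adjusted p = 2.21e-09) from 8 counts over the hiPSC group. The acetyltransferase KAT2B, a coactivator, rose by 4.96 ± 0.19 (edgeR adjusted p = 3.14e-09) and NEURL1, which promotes ligand endocytosis, by 3.60 ± 0.28 (edgeR adjusted p = 5.68e-07). HES3 was at 20.9 to 23.4 FPKM in hiPSCs and listed at 0 in every other library. With 3 counts as the limit over the D70-RO group it was at least 278-fold lower there. DTX2, an E3 ubiquitin ligase of the Deltex family, fell by 2.01 ± 0.17 (edgeR adjusted p = 9.69e-07) and NEURL1B, a relative of NEURL1, by 1.19 ± 0.15 (edgeR adjusted p = 2.08e-05).

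Between D150-ROs and D70-ROs, 14 of 50 other pathway genes were called (28.0%), 5 higher and 9 lower. This was below the share of all genes tested, of which 33.3% were called, 16.6% higher and 16.7% lower. The median was −0.10 against −0.01 over all genes. DLL3 fell most, by 3.19 ± 0.14 (edgeR adjusted p = 3.68e-07), from 18.5, 23.4 and 21.2 FPKM to 2.40, 2.93 and 2.44. HES6, an unusual family member that promotes neuronal differentiation, fell by 2.92 ± 0.15 (edgeR adjusted p = 6.22e-07) from 156.5, 194.9 and 146.7 FPKM to 22.7, 24.8 and 28.9. DLL3 and HES6 were both higher in each D70-RO library than in any other group. APH1A, a subunit of γ-secretase, fell by 1.71 ± 0.11 (edgeR adjusted p = 2.08e-06). NEURL1 rose by 2.30 ± 0.12 (edgeR adjusted p = 9.30e-07), the coactivator MAML2 by 1.89 ± 0.11 (edgeR adjusted p = 1.30e-06) and the corepressor SPEN by 1.45 ± 0.15 (edgeR adjusted p = 2.85e-05). Between D150-ROs and hiPSCs, 26 of 51 were called, 17 higher and 9 lower (58.8% of all genes tested). The largest rises were DLL4 with 6.78 ± 0.24 (edgeR adjusted p = 1.02e-10), KAT2B with 6.22 ± 0.13 (edgeR adjusted p = 2.67e-12) and NEURL1 with 5.89 ± 0.19 (edgeR adjusted p = 4.44e-11). HES3 was at least 317-fold lower, DTX2 fell by 2.45 ± 0.11 (edgeR adjusted p = 6.78e-10) and NRARP, a Notch-induced feedback inhibitor, by 2.26 ± 0.14 (edgeR adjusted p = 9.60e-09).

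Between P1 iMGCs and D150-ROs, 26 of 50 other pathway genes were called (52.0%), 7 higher and 19 lower. Among all genes tested 44.1% were called, 20.0% higher and 24.1% lower. The median was −0.26 against −0.05 over all genes. All 4 other ligands fell, and JAG1 alone of the 5 was not lower. DLL1, DLL3, DLL4 and JAG2 lay under 1 FPKM in all P1 libraries. They were therefore tested only because they are higher in D150-ROs, and could only be called lower. The same held for HES2, HES6, DTX1, MAML3, MFNG, NEURL1, NEURL1B, NRARP and TLE2. DLL4 fell by 6.91 ± 0.26 (edgeR adjusted p = 7.50e-13) to 5 counts over the P1 group, and NEURL1 by 7.73 ± 0.27 (edgeR adjusted p = 2.72e-13) to 5 counts. Of 9 inhibitors and turnover genes 5 fell, and DTX1, of the Deltex family, was listed at 0 in the P1 libraries and at least 170-fold lower. Among the feedback genes NRARP was at 0.21, 0.17 and 0.03 FPKM in P1 iMGCs against 4.83, 5.64 and 4.18 in D150-ROs. Of 9 genes that cleave the receptor 4 rose, led by the protease FURIN with 1.71 ± 0.05 (edgeR adjusted p = 6.55e-14). Of 5 that glycosylate it 2 rose, LFNG by 1.69 ± 0.08 (edgeR adjusted p = 1.24e-11) and POFUT1 by 1.65 ± 0.04 (edgeR adjusted p = 8.71e-15), while MFNG fell. Without any 1 D150-RO library 11 or 12 of the other pathway genes were called in place of 26, because genes present in D150-ROs and absent from iMGCs then no longer had 3 libraries at 1 FPKM.

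**Figure D5:**
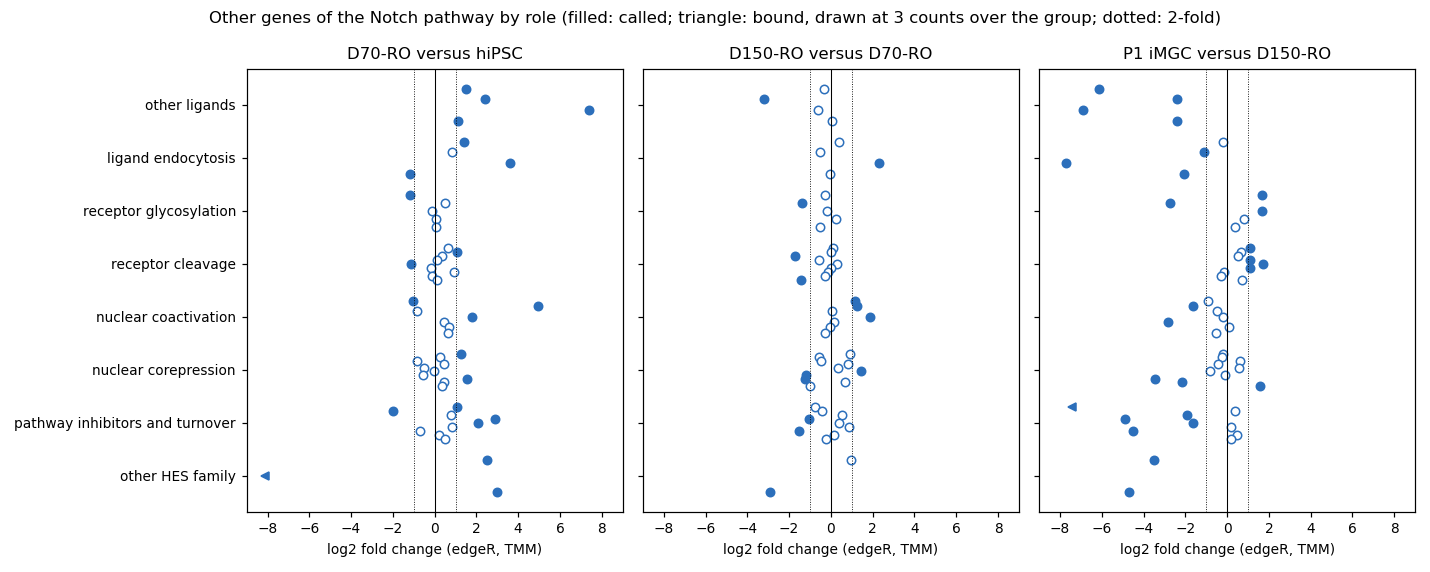
Fitted log2 fold change (x axis) of the other pathway genes tested, by role (y axis), in 3 comparisons, 1 point per gene, filled where called, with triangles at the limit for groups with no count. In P1 iMGCs against D150-ROs the 4 other ligands lie between −6.91 and −2.38 while the 9 cleavage genes lie between −0.30 and 1.71.

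Between P5 and P1 iMGCs, 0 of 37 other pathway genes were called with edgeR, where 2.92% of all genes tested were. An unadjusted p under 0.05 was found for 15, and DESeq2 and limma called 0. ATOH7, a proneural factor of retinal ganglion cell formation that HES proteins repress, was at 67.2, 78.9 and 62.6 FPKM in D70-ROs, where the HES genes were highest, and at 2.45, 3.27 and 3.65 in D150-ROs.

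For each of the 10 genes, up to 2 other genes with the most alike profile are given as a description, by the root mean square difference of group means of log2(FPKM + 1), centred per gene, over the 5 groups and 13905 genes. They were TMEM108 (0.12) and SLC22A23 (0.14) for NOTCH1, MACF1 (0.11) and ENAH (0.13) for NOTCH2, KIF23 (0.06) and MRPS12 (0.07) for NOTCH3, and FOSL1 (0.28) and PIEZO1 (0.29) for JAG1. For the HES genes they were FBLL1 (0.15) and NUP62CL (0.16) for HES1, MAN1A1 (0.18) and VAX2 (0.37) for HES4, and SYNPR (0.09) and CP (0.11) for HES5. For the HEY genes they were GABBR2 (0.12) and IGSF11 (0.17) for HEY1, LAMA1 (0.11) for HEY2, and PRRT2 (0.10) and TSPAN9 (0.10) for HEYL. JAG1 and HES4 had the most distant neighbours. PIEZO1, for example, went with JAG1 through 14.8 FPKM in hiPSCs, 4.10 in D70-ROs, 27.0 in D150-ROs and 46.4 in P1 iMGCs, while SYNPR went with HES5 at 18.5 FPKM in D70-ROs, 10.2 in D150-ROs and 0 in iMGCs.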

How the data were processed

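Gene levels were measured in 15 poly(A) RNA-seq libraries made from BC1-GFP cells, 3 for each of the 5 groups, which were set by their titles. Per the labels and the methods, the authors used HISAT2 for mapping, StringTie for assembly and RSEM for quantification. Versions, genome build and annotation are not given in the sources used here. They deposited RSEM expected counts, which are not normalized, and FPKM, which they scaled for transcript length and mapped reads. Between 8.22% and 10.1% of the counts per library were not whole and were rounded. A further table of the series was not used: its 12 per-sample columns repeat the D150-ROs or name iMGCs without a passage.

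The 10 genes and the gene lists were chosen with earlier results of these data known. Groups were compared without covariates in R 4.3.3 with edgeR 4.0.16, on TMM factors and library totals over all genes. Genes needed 1 FPKM in 3 libraries of the 2 groups to be tested, and to be called a change of 2-fold or more with an adjusted p below 0.05. Named genes were the 10, up to 3 largest rises and falls among called pathway genes per comparison, and the 2 nearest profiles; some items under this rule are not reported here. RLBP1, AQP4, GLUL, SOX9, VIM, CRYAB, SLC1A3, ACTA2, NDUFA4L2, KCNJ8, ABCC9, MYH11, COL1A1, KDR, CDH5 and NOTCH2NLA were added after their values were seen. So were PDGFRB, RGS5, CSPG4, MCAM, DES and the proliferation marker sum, and NRARP and MFNG in P1 iMGCs. Pathway genes named for lying under 1 FPKM in all libraries of a group were also chosen after that. Library totals lay between 11349600 and 20398755 with a median of 17194154, and no 2 libraries of a group agreed within sampling noise. Limits for groups without a count use 3 counts over the group and counting intervals are exact 95% intervals of the ratio; both cover counting error only. All 19684 identifiers are in GENCODE 29, used for positions and lengths. Alternatives were other scaling, no filter, DESeq2 1.42.0, limma 3.58.1 on log2(FPKM + 1), 1 fit of all libraries, a replicate block, leaving out each library, and P5 in place of P1 iMGCs. The fits were tested on simulated data.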

Additional observations from a re-analysis of the deposited data

How the results depend on the processing

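With 3 libraries per group and at least 11349600 counts each, precision is limited for genes with few counts per library, such as HES5, HEY1, HEY2 and HEYL in iMGCs. The sign of NOTCH1 between D70-ROs and hiPSCs turned with DESeq2 size factors (−0.0129), with DESeq2 (−0.0131), with 1 fit of all libraries (−0.0102) and without hiPSC replicate 1 or 3, and with 1 library left out it ran from −0.21 to 0.16. Between D150-ROs and hiPSCs, HES1 turned with limma on log2(FPKM + 1) (0.0217) and without D150-RO replicate 1 (range −0.48 to 0.0234), and JAG1 turned without hiPSC replicate 2 or 3 (range −0.14 to 0.28). HES4 between P5 and P1 iMGCs turned without P5 replicate 1 (range −0.30 to 0.00401). None of these passed the threshold in either form.

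With 1 library left out, 4 to 9 members were called between P1 iMGCs and D150-ROs, 4 to 5 of them without a D150-RO library, since fewer members then pass the FPKM minimum. Between P5 and P1 iMGCs, 1 member was called with no filter (HEY1) and 2 in 1 fit of all libraries (HEY1 and HEY2), where 332 of all genes became 694 with no filter, 514 in 1 fit and 152 with limma. The share of higher genes among those called moved with limma from 49.8% to 63.3% between D150-ROs and D70-ROs, and from 45.4% to 22.9% between P1 iMGCs and D150-ROs.

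Shares from expected counts, which are not scaled for length, were 49.9% for NOTCH3 in hiPSCs, 48.5% for NOTCH1 in D150-ROs, and 81.2% and 83.3% for NOTCH2 in P1 and P5 iMGCs. JAG1 was at 74.3% in hiPSCs, 56.1% in D150-ROs, 96.0% in P1 and 96.2% in P5 iMGCs, and DLL3 at 32.4% in D70-ROs. Among the effectors HES1 was at 50.2% in hiPSCs, HEY1 at 35.8% in D150-ROs, and HES4 at 36.7% in P1 and 33.9% in P5 iMGCs, where HES1 led instead.

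Deviations from the group means correlated at −0.06 to 0.35 between libraries with the same replicate number and at −0.30 to 0.30 between others, and not every library correlated most with its own number, so the numbers were not taken to pair them. With a replicate block the members called stayed at 8, 8, 6, 8 and 0, and the genes called in all were 5663, 4317, 7845, 5690 and 333. Of the single members' values over all other alternatives, 319 kept direction and call, 5 gained and 4 lost the call, and with 1 library left out 231 kept both, 8 gained and 1 lost the call.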
